A study of Homo sapiens with 9 samples.

Results

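The isocitrate dehydrogenase genes IDH1, IDH2, IDH3A, IDH3B and IDH3G were followed through RNA sequencing of human kidney tubule cells exposed to a nephrotoxin. They were chosen by gene symbol, with earlier results of these data known, and are 5 of the 62703 genes in the deposited table. HK-2 is a line of human proximal tubule epithelium immortalised with papillomavirus genes. The libraries labelled MYDGF plus aristolochic acid (n = 3) came from cells given an adenovirus (vector GV314) that carries MYDGF, a secreted growth factor, and given aristolochic acid, a plant toxin that damages the proximal tubule. The libraries labelled aristolochic acid (n = 3) had the toxin and no stated virus, and the untreated libraries (n = 3) had neither. The genotype of these groups without a stated virus is labelled WT. In both groups with the toxin, aristolochic acid was at 5 µg/ml for 48 h. When the virus was added relative to the toxin is not stated. The protocol, written once for all libraries, has 12 h of serum starvation first and a medium with 5% serum, and no empty virus or vehicle is named for either of the other groups. In the MYDGF plus aristolochic acid group the virus and MYDGF cannot be told apart. The study asked what the toxin and added MYDGF do to tubule cell transcripts, and the labels do not say that replicates were separate cultures, so p-values here reflect a scatter between libraries that may be technical.

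Isocitrate dehydrogenases turn isocitrate into 2-oxoglutarate and carbon dioxide. IDH1 works in the cytosol and peroxisomes and IDH2 in mitochondria; both are homodimers that reduce NADP+ to NADPH, which supplies reducing power for lipid synthesis and for the glutathione and thioredoxin systems. IDH3 is the mitochondrial enzyme of the tricarboxylic acid (TCA) cycle. It reduces NAD+ to NADH and is built from a catalytic subunit, encoded by IDH3A, and the subunits encoded by IDH3B and by IDH3G, the regulatory one. The proximal tubule relies on mitochondrial oxidation for its transport work.

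The total count was 10876572 to 14254786 reads per library. MYDGF itself, the label check, stood at 663, 510.2 and 599 counts per 1000000 reads (CPM, scaled between libraries by TMM) in MYDGF plus aristolochic acid cells, at 105, 74.2 and 90.4 CPM in aristolochic acid cells and at 125, 131 and 123 CPM in untreated cells, so the libraries labelled with MYDGF carried it. Of the cell type markers, all 5 epithelial markers had counts in every group (their sum was 1390 to 1413 CPM in MYDGF plus aristolochic acid cells, 1575 to 1711 CPM in aristolochic acid cells and 1080 to 1121 CPM in untreated cells). Of these markers CDH1 had the reverse order of the sum, at 72.8 ± 3.01, 46.8 ± 6.16 and 102 ± 4.72 CPM in the same order of groups (SD, n = 3 each). KRT19 (62.8 ± 3.15, 50.5 ± 3.09 and 42.3 ± 2.44 CPM) and EPCAM (13.5 ± 0.786, 12.7 ± 1.82 and 7.53 ± 0.665 CPM) had their highest mean with MYDGF. Of 11 proximal tubule markers, 9, 8 and 8 had any count in MYDGF plus aristolochic acid, aristolochic acid and untreated cells, with sums of 19.3 to 22.1, 25.2 to 34.6 and 14.6 to 15.9 CPM; the organic anion transporter genes SLC22A6 and SLC22A8, which define the segment, were at 0 in all 9 libraries. The marker sums of other cells were low, but so were those of the proximal tubule. In untreated cells the proximal tubule sums overlapped with the leukocyte sums. The sums of the endothelial, leukocyte, and distal nephron and podocyte lists differed without overlap between untreated cells and both groups with the toxin. The fibroblast sums of aristolochic acid cells overlapped with those of both other groups. For 5 endothelial markers (EMCN at 0 throughout) the sum was 3.59 to 4.14 CPM in MYDGF plus aristolochic acid cells, 6.56 to 12.4 CPM in aristolochic acid cells and 0.984 to 1.26 CPM in untreated cells. For 6 leukocyte markers (CD3E at 0) it was 5.37 to 6.97, 5.91 to 8.46 and 14.3 to 20.8 CPM in the same order of groups, for 6 distal nephron and podocyte markers (UMOD at 0) 5.15 to 7.05, 9.72 to 15.5 and 2.77 to 3.57 CPM, and for 6 fibroblast markers 13.4 to 15.7, 8.55 to 14.4 and 10.3 to 12.9 CPM. Whether these shifts have a part in the results for the IDH genes was not tested.

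Promoter windows of the family were read from RefSeq (GRCh38.p14), where all 5 genes matched, with 6 windows of 250 bases before and 50 after a start site. The windows are shown because IDH1 and IDH3B changed in opposite directions after the toxin while IDH3A did not pass the test. Each is written 5′ to 3′ on the gene's own strand, trimmed to its longest stretch before the start site that holds no annotated exon. Capitals mark matches on either strand to any of 9 motifs. These were the GC box, spelled GGGCGG. The CCAAT box was searched under its own letters. The ETS motif was CCGGAAG and the core of the NRF1 motif was TGCGCA. The CRE core was TGACGT and the E-box was CACGTG. The remaining motifs were ATGGCGGC for YY1, TGATGNAA for ATF4 and TCACNCCAC for the sterol response element.
IDH1, chr2:208255134-208255246, minus strand: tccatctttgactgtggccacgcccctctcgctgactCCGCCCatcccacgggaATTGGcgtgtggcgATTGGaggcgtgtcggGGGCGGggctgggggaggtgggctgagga
IDH3A, chr15:78149112-78149320, plus strand: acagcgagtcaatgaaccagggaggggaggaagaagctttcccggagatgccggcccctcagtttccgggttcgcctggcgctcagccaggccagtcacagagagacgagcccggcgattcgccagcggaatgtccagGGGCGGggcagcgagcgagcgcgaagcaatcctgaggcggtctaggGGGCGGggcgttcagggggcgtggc
IDH3B, chr20:2664220-2664351, minus strand: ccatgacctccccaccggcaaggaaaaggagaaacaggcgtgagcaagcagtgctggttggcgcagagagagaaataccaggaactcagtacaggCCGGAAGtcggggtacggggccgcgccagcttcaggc

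Over the whole window the IDH1 start site at 208255071 had 3 GC boxes and 2 CCAAT boxes, and none of the other letters searched; a further IDH1 window, at start site 208254458, had 2 GC boxes. The IDH3A window had 3 GC boxes and 1 NRF1 core. The IDH3B window had 1 ETS motif, 1 NRF1 core and 1 YY1 motif, and no GC box. The IDH3G window, most of which lies in annotated exons and is not printed, had 1 CCAAT box, 1 ETS motif, 1 NRF1 core, 2 CRE cores and 1 YY1 motif. The IDH2 window, at start site 90100621, held no match. All 6 start sites lie inside the gene spans of the deposited table, downstream of where those spans begin. The IDH1, IDH2 and IDH3A windows do not reach the beginning of their spans. The lack of matches for IDH2 therefore holds for an internal start site only. Among all 35116 windows of this length, 45.0% had a GC box, 34.6% a CCAAT box, 10.3% the ETS motif, 8.24% the NRF1 core, 7.98% the CRE core, 7.26% the E-box, 3.62% the ATF4 motif, 3.00% the YY1 motif and 1.13% the sterol element. These are matches of letters and no binding was measured. IDH3G, lower after the toxin, had the ETS, NRF1 and YY1 matches that IDH3B, higher after the toxin, also had. Any link between the matches and the direction of change was not tested.

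After aristolochic acid the family split. Both NADPH-making enzymes and the IDH3G subunit were at 30.8% to 34.5% of their untreated means, IDH3B was higher, and IDH3A showed no difference that passed the test. With MYDGF, IDH1, IDH2 and IDH3G stood above the toxin alone. By its mean, IDH2 came closest to the untreated level and IDH3G stayed furthest below it, a contrast between members that was not itself tested. Across the 18267 genes tested with edgeR's quasi-likelihood test (Benjamini-Hochberg adjusted p under 0.05), 59.0% differed between aristolochic acid and untreated cells, and 4 of the 5 IDH genes did, 1 higher (29.7% of all genes) and 3 lower (29.3%). Between MYDGF plus aristolochic acid and aristolochic acid cells 29.4% of all genes differed and 3 of the 5 members did, all 3 higher against a background of 14.7% higher. Between MYDGF plus aristolochic acid and untreated cells 51.1% of all genes differed and 3 of the 5 members did, 1 higher (26.8% of all genes) and 2 lower (24.3%). The 3 comparisons share libraries in pairs and are not independent of each other.

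**Figure D1:**
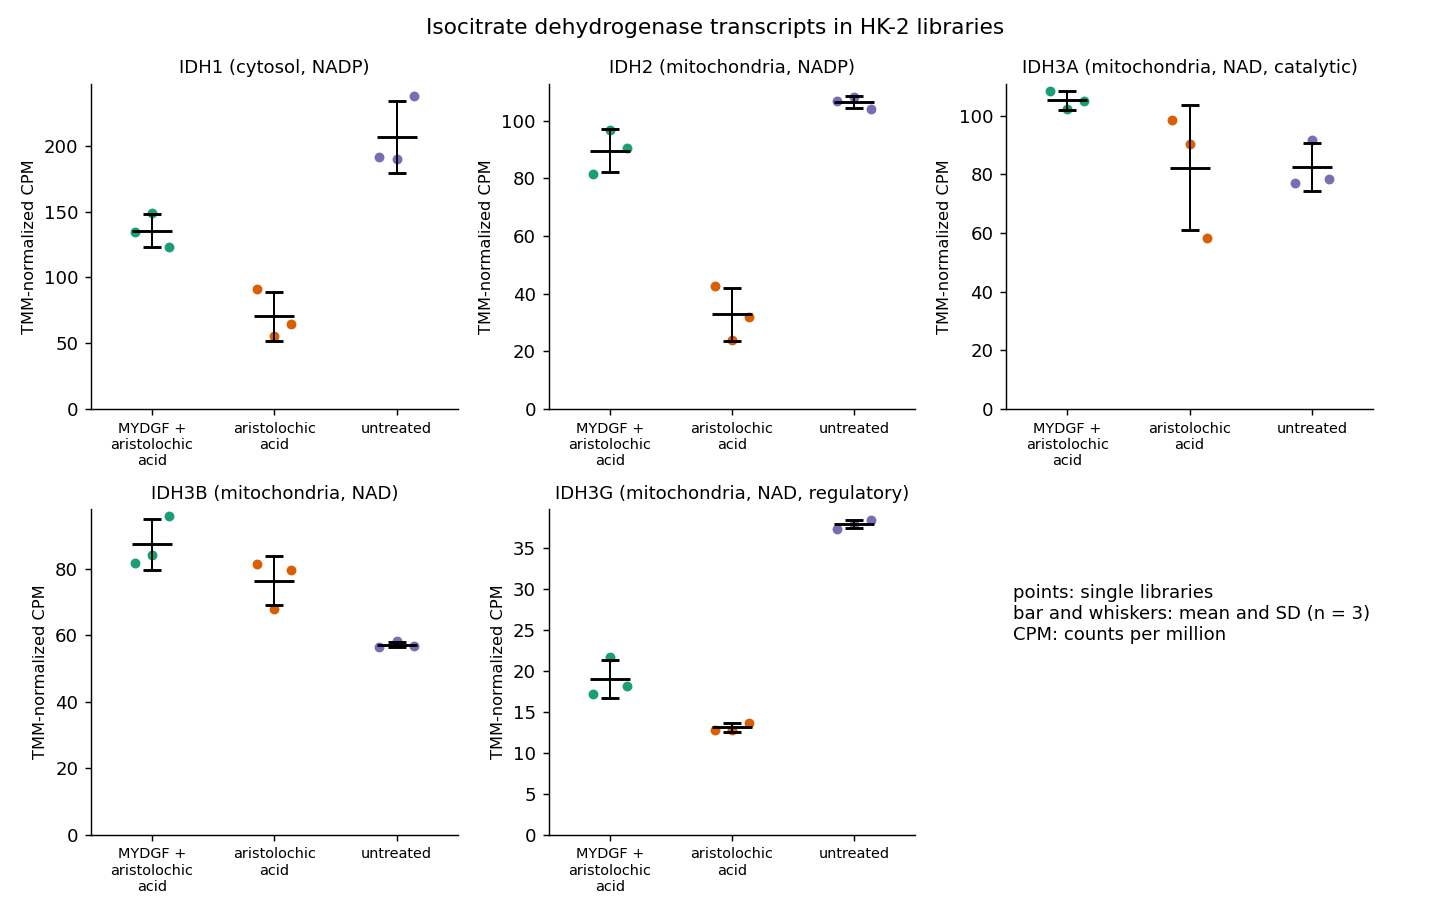
Level of each IDH gene in TMM-normalized CPM on the vertical axis, by group on the horizontal axis; points are libraries, the bar and whiskers the mean and SD (n = 3). IDH1, IDH2 and IDH3G are lowest in aristolochic acid cells (IDH2 24.1 to 42.6 CPM) with no overlap with either of the other groups, whereas IDH3B is lowest in untreated cells (56.6 to 58.2 CPM).

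IDH1 (ENSG00000138413, chr2:208236229-208266074, minus strand) is the cytosolic and peroxisomal source of NADPH in the family. It had 135, 149 and 123 CPM in MYDGF plus aristolochic acid cells, 91.5, 55.6 and 64.6 CPM in aristolochic acid cells and 191, 189.9 and 238 CPM in untreated cells. The 3 groups did not overlap, and every MYDGF plus aristolochic acid library lay between the other two groups. Aristolochic acid cells averaged 70.5 ± 18.7 CPM and untreated cells 206 ± 27.3 CPM (SD, n = 3 each), a log2 fold change of -1.55 (SE 0.176, edgeR adjusted p = 8.52e-05) or 34.2% of the untreated mean. With MYDGF the level was 1.92-fold that under the toxin alone (log2 fold change 0.94, SE 0.175, adjusted p = 0.00493). It remained below the untreated level (log2 fold change -0.61, SE 0.172, adjusted p = 0.0156), at 65.7% of the untreated mean. This last call was lost without MYDGF plus aristolochic acid library 1 (adjusted p = 0.0519), library 4 (0.0666) or untreated library 3 (0.0714), although the value stayed between -0.68 and -0.48.

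IDH2 (ENSG00000182054, chr15:90083045-90102477, minus strand), the NADPH-making enzyme inside mitochondria, had the largest fitted changes of the 5, both for aristolochic acid against untreated cells and for MYDGF plus aristolochic acid against aristolochic acid cells. Its values were 81.7, 96.7 and 90.5 CPM in MYDGF plus aristolochic acid cells, 42.6, 24.1 and 31.9 CPM in aristolochic acid cells and 107, 108 and 104 CPM in untreated cells. All 3 aristolochic acid libraries lay far below the rest, and the MYDGF plus aristolochic acid libraries lay close under the untreated ones without reaching them. The level in aristolochic acid cells was 30.8% of the untreated mean (log2 fold change -1.70, SE 0.172, adjusted p = 4.57e-05). MYDGF plus aristolochic acid cells averaged 89.7 ± 7.55 CPM and aristolochic acid cells 32.9 ± 9.28 CPM (SD, n = 3 each), a 2.73-fold difference (log2 fold change 1.45, SE 0.172, adjusted p = 0.00101). Against untreated cells the MYDGF plus aristolochic acid level was 84.1% of the mean and the difference did not pass the test (log2 fold change -0.25, SE 0.165, adjusted p = 0.235). When the fit held the libraries of those groups alone, that difference did pass (-0.24, adjusted p = 0.0243).

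IDH3A (ENSG00000166411, chr15:78131498-78171945, plus strand) encodes the catalytic subunit of the TCA cycle enzyme. It had 108, 102 and 105 CPM in MYDGF plus aristolochic acid cells, 98.5, 90.3 and 58.2 CPM in aristolochic acid cells and 77.0, 91.8 and 78.5 CPM in untreated cells. Aristolochic acid library 6 lay below all other libraries, and the aristolochic acid and untreated groups overlapped. None of the 3 comparisons passed the test. The mean was 82.3 ± 21.3 CPM in aristolochic acid cells and 82.4 ± 8.12 CPM in untreated cells (SD, n = 3 each; log2 fold change -0.00064, SE 0.168, adjusted p = 0.998). Without library 6 the log2 fold change was 0.22 (adjusted p = 0.0839). The MYDGF plus aristolochic acid libraries were above all libraries of both other groups, with log2 fold changes of 0.35 over aristolochic acid cells (SE 0.167, adjusted p = 0.141) and 0.35 over untreated cells (SE 0.167, adjusted p = 0.107). The first of these passed without aristolochic acid library 1 (0.50, adjusted p = 0.0445), and the second passed without aristolochic acid library 6 (0.37, adjusted p = 0.00816), which is not in that contrast but enters the common estimate of the spread.

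IDH3B (ENSG00000101365, chr20:2658395-2664219, minus strand), a further subunit of the same enzyme, was the only member called higher after the toxin. Its values were 81.9, 84.3 and 96.0 CPM in MYDGF plus aristolochic acid cells, 81.6, 68.1 and 79.7 CPM in aristolochic acid cells and 56.6, 58.2 and 56.9 CPM in untreated cells. The untreated libraries were close together and lay below all others. Aristolochic acid cells exceeded untreated cells by 0.42 on the log2 scale (SE 0.0898, adjusted p = 0.00304), and MYDGF plus aristolochic acid cells exceeded untreated cells by 0.61 (SE 0.0896, adjusted p = 0.000503), which is 153% of the untreated mean. The MYDGF plus aristolochic acid and aristolochic acid groups did not overlap, by a margin between 81.9 and 81.6 CPM, and did not differ by the test (0.19, SE 0.0891, adjusted p = 0.132).

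IDH3G (ENSG00000067829, chrX:153785766-153794512, minus strand) encodes the regulatory subunit and had the fewest reads, 149 to 508 per library. It had 17.2, 21.7 and 18.2 CPM in MYDGF plus aristolochic acid cells, 12.8, 12.8 and 13.7 CPM in aristolochic acid cells and 37.4, 38.0 and 38.4 CPM in untreated cells. The 3 groups were well apart, and the spread within the aristolochic acid and the untreated libraries was narrow. The level in aristolochic acid cells was 34.5% of the untreated mean (log2 fold change -1.53, SE 0.104, adjusted p = 7.43e-06). MYDGF plus aristolochic acid cells averaged 19.0 ± 2.38 CPM and aristolochic acid cells 13.1 ± 0.517 CPM (SD, n = 3 each), a log2 fold change of 0.54 (SE 0.105, adjusted p = 0.00605). Against untreated cells the MYDGF plus aristolochic acid level was 50.1% (log2 fold change -1.0, SE 0.102, adjusted p = 7.00e-05).

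**Figure D2:**
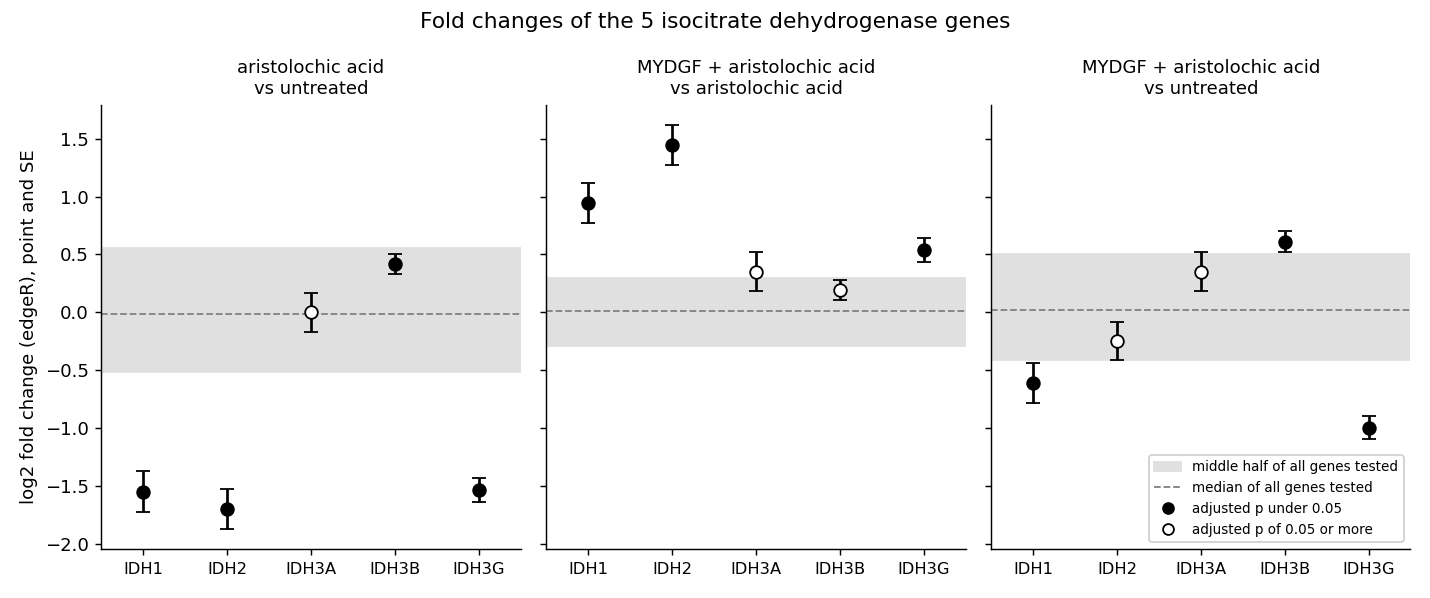
Log2 fold change of each IDH gene (point) with its SE (whiskers) in the 3 comparisons; the grey band spans the lower to the upper quartile of all 18267 genes tested, the dashed line is their median and filled points have an adjusted p under 0.05. IDH1, IDH2 and IDH3G lie below the band for aristolochic acid against untreated (-1.55, -1.70 and -1.53) and above it for MYDGF plus aristolochic acid against aristolochic acid (0.94, 1.45 and 0.54).

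The members' median log2 fold change was -1.53 for aristolochic acid against untreated cells, where the median of all genes tested was -0.01 and their quartiles -0.52 and 0.55. It was 0.54 for MYDGF plus aristolochic acid against aristolochic acid cells (all genes 0.01, quartiles -0.29 and 0.30) and -0.25 for MYDGF plus aristolochic acid against untreated cells (all genes 0.02, quartiles -0.41 and 0.50). Members whose libraries did not overlap between the groups numbered 4, 5 and 5 in these comparisons, against 65.9%, 44.3% and 63.9% of all genes. In bulk RNA such as this, fewer cells with a transcript and less transcript per cell cannot be told apart.

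Levels of different genes were compared per length, in the deposited FPKM (fragments per kilobase of gene length, scaled to the library total). In MYDGF plus aristolochic acid cells IDH2 led (23.2 ± 1.86 FPKM), IDH1 (15.8 ± 1.49 FPKM) and IDH3B (14.7 ± 1.20 FPKM) followed and overlapped, and IDH3A (6.74 ± 0.227 FPKM) and IDH3G (3.38 ± 0.414 FPKM) came last. In aristolochic acid cells IDH3B led (13 ± 1.24 FPKM). IDH2 (8.57 ± 2.44 FPKM) and IDH1 (8.28 ± 2.22 FPKM) overlapped behind it, with IDH3A (5.31 ± 1.39 FPKM) and IDH3G (2.34 ± 0.0815 FPKM) below. In untreated cells IDH2 (27.4 ± 0.675 FPKM) and IDH1 (23.9 ± 3.02 FPKM) were highest and overlapped, followed by IDH3B (9.59 ± 0.166 FPKM), IDH3G (6.69 ± 0.0628 FPKM) and IDH3A (5.24 ± 0.526 FPKM; SD, n = 3 for each value). Neighbours in these orders not said to overlap had libraries that did not overlap. On this scale the most abundant member was IDH2 in MYDGF plus aristolochic acid cells and in untreated cells, and IDH3B under the toxin alone.

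That order depends on the gene length used. The lengths behind the deposited FPKM were 8566 bases for IDH1, 3855 for IDH2, 15580 for IDH3A, 5909 for IDH3B and 5620 for IDH3G, each longer than all annotated exons of GENCODE 29 joined (4721, 2814, 6832, 2567 and 2717 bases). Over the length of the first GENCODE transcript (2382, 2694, 4128, 1545 and 1485 bases), a scale added after the data had been seen, IDH1 and IDH3B overlapped at the top in MYDGF plus aristolochic acid cells, IDH3B still led in aristolochic acid cells and IDH1 led in untreated cells.

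Ratios within a library do not depend on scaling between libraries, but whether a ratio lies above or below 1 rests on the gene lengths used. The IDH1 to IDH2 ratio in FPKM was 0.741, 0.692 and 0.614 in MYDGF plus aristolochic acid cells, 0.967, 1.04 and 0.910 in aristolochic acid cells and 0.805, 0.789 and 1.03 in untreated cells. It was lowest in MYDGF plus aristolochic acid cells, with no overlap with either group. Over the first GENCODE transcript IDH1 was instead above IDH2 in all 3 groups, with means of 56.9 and 33.3 in MYDGF plus aristolochic acid cells, 29.6 and 12.2 in aristolochic acid cells and 86.7 and 39.6 in untreated cells (TMM-normalized CPM per kilobase). The IDH3G to IDH3A ratio was 0.439, 0.588 and 0.482 in MYDGF plus aristolochic acid cells, 0.360, 0.394 and 0.653 in aristolochic acid cells and 1.35, 1.15 and 1.36 in untreated cells. The regulatory to catalytic transcript ratio was lower in every library that had the toxin than in any untreated one, and the groups with and without MYDGF overlapped. For IDH3B to IDH3A the ratio was 1.99, 2.17 and 2.41 in MYDGF plus aristolochic acid cells, 2.18, 1.99 and 3.61 in aristolochic acid cells and 1.94, 1.67 and 1.91 in untreated cells. The high value of 3.61 belongs to aristolochic acid library 6, in which IDH3A was low.

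IDH2 made up 34.9%, 37.4% and 36.6% of the summed FPKM of the 5 genes in MYDGF plus aristolochic acid cells, 25%, 19.3% and 23.3% in aristolochic acid cells and 39.0%, 38.6% and 35.4% in untreated cells. With MYDGF the share overlapped with that of untreated cells. Over the first GENCODE transcript the IDH2 share was 17.1% to 18.7% in MYDGF plus aristolochic acid cells, 8.38% to 11.3% in aristolochic acid cells and 17.6% to 19.8% in untreated cells. The sum itself was 61.0, 66.9 and 63.6 FPKM in MYDGF plus aristolochic acid cells, 44.5, 32.6 and 35.5 FPKM in aristolochic acid cells and 70.9, 72.3 and 75.1 FPKM in untreated cells, with no overlap between groups. A two-sided exact permutation test of 3 against 3 libraries cannot go below p = 0.1, and 8 of the 12 tests on these ratios and shares reached that value (0.15 adjusted over the 12). The others were the IDH1 to IDH2 ratio for aristolochic acid against untreated cells (exact p = 0.3), the IDH2 share for MYDGF plus aristolochic acid against untreated cells (exact p = 0.3), and both IDH3 ratios between MYDGF plus aristolochic acid and aristolochic acid cells (exact p = 0.6 for IDH3G and 0.7 for IDH3B).

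**Figure D3:**
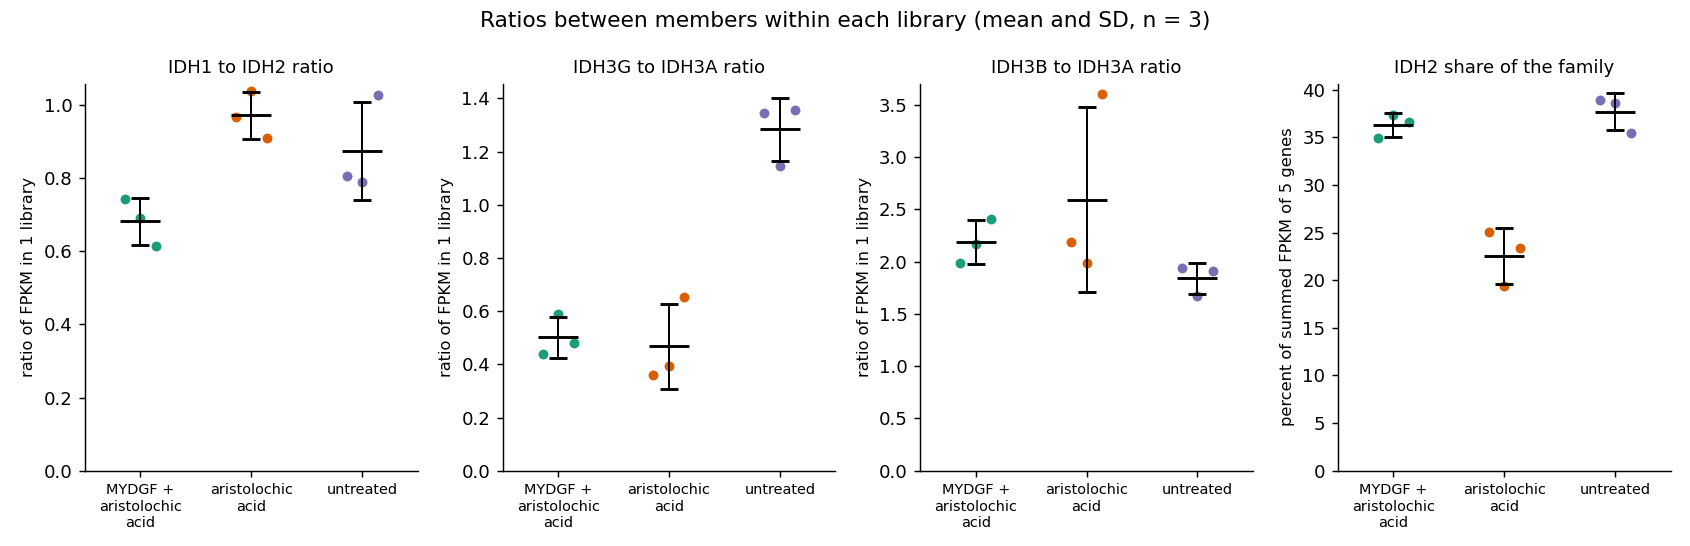
Ratios of FPKM between members of the same library and the IDH2 percentage of the summed FPKM of the 5 genes, by group; points are libraries, bars and whiskers the mean and SD (n = 3). The IDH3G to IDH3A ratio is 0.360 to 0.653 in libraries with the toxin and 1.15 to 1.36 in untreated libraries, and the IDH2 share is 19.3% to 25% in aristolochic acid cells.

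Several members share a locus with a gene on the other strand, and no source used here says whether the counting used strand, so reads in shared bases cannot be assigned with certainty. IDH3G and SSR4, a subunit of the translocon-associated protein complex, share 278 exonic bases in GENCODE 29 (10.2% of the IDH3G exons). SSR4 had 22.9, 27.6 and 24.8 CPM in MYDGF plus aristolochic acid cells, 19.7, 18.1 and 18.5 CPM in aristolochic acid cells and 42.4, 33.6 and 34.7 CPM in untreated cells. It followed the order of IDH3G: lower in aristolochic acid than in untreated cells (log2 fold change -0.98, SE 0.116, adjusted p = 0.000106), higher with MYDGF than with the toxin alone (0.42, SE 0.116, adjusted p = 0.0246) and lower with MYDGF plus the toxin than in untreated cells (-0.56, SE 0.114, adjusted p = 0.00308). The part of shared reads in the IDH3G result was not tested.

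IDH3A shares 2608 exonic bases (38.2% of its exons) with ACSBG1, an acyl-CoA synthetase gene, which had 1 to 12 reads per library, and 47 with CIB2, a calcium and integrin binding protein gene. CIB2 was lower in aristolochic acid than in untreated cells (6.79 ± 0.678 and 14.1 ± 1.99 CPM, SD, n = 3 each; log2 fold change -1.05, adjusted p = 0.000343), a direction that IDH3A did not share. The antisense transcript IDH1-AS1 shares 94 exonic bases with IDH1. It had 8, 3 and 7 reads in MYDGF plus aristolochic acid libraries, 2, 0 and 5 in aristolochic acid libraries and 16, 16 and 18 in untreated libraries. Like IDH1 it was lower in aristolochic acid than in untreated cells (log2 fold change -2.70, SE 0.633, adjusted p = 0.00487) and in MYDGF plus aristolochic acid than in untreated cells (-1.54, SE 0.534, adjusted p = 0.0368), but at these counts the difference between MYDGF plus aristolochic acid and aristolochic acid cells (1.16, SE 0.735) did not pass (adjusted p = 0.269). The divergent transcripts IDH2-DT and IDH3B-DT had at most 2 reads in any library, and the annotated IDH1 and IDH3G pseudogenes had 0 in all 9.

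The 3′ end of IDH3B lies 2 bases from that of NOP56, a box C/D snoRNP protein gene on the other strand, with no shared base; NOP56 is named here after its values had been seen. It had 205, 165 and 199.9 CPM in MYDGF plus aristolochic acid cells, 123, 129 and 158 CPM in aristolochic acid cells and 86.2, 80.5 and 79.7 CPM in untreated cells. Both genes at this locus were above the untreated level in every library with the toxin, and NOP56 differed in all 3 comparisons (log2 fold changes 0.73 for aristolochic acid against untreated, adjusted p = 0.000455; 0.47 for MYDGF plus aristolochic acid against aristolochic acid, 0.0132; 1.21 for MYDGF plus aristolochic acid against untreated, 4.49e-05). Reads running past the end of either gene were not separated here. The other genes close to a member are PIKFYVE, ZNF710 and ZNF710-AS1. PIKFYVE is a phosphoinositide kinase gene 193 bases from IDH1, and ZNF710 is a zinc finger gene 839 bases from IDH2. The antisense transcript ZNF710-AS1 overlaps the end of ZNF710 that faces IDH2. PIKFYVE had log2 fold changes of -0.15 for aristolochic acid against untreated cells (adjusted p = 0.136), -0.08 for MYDGF plus aristolochic acid against aristolochic acid cells (0.511) and -0.22 for MYDGF plus aristolochic acid against untreated cells (0.0399). ZNF710 had 0.18 (adjusted p = 0.137), 0.50 (0.00610) and 0.68 (0.000437) in the same comparisons. Neither PIKFYVE nor ZNF710 was called for aristolochic acid against untreated cells. ZNF710-AS1 had -0.89 (edgeR adjusted p = 0.0243), 0.82 (0.0592) and -0.07 (0.857) in these comparisons. Like IDH2 it was called lower in aristolochic acid than in untreated cells (3.95 ± 1.95 and 7.33 ± 1.01 CPM, SD, n = 3 each). Any link to the IDH2 result was not tested.

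**Figure D4:**
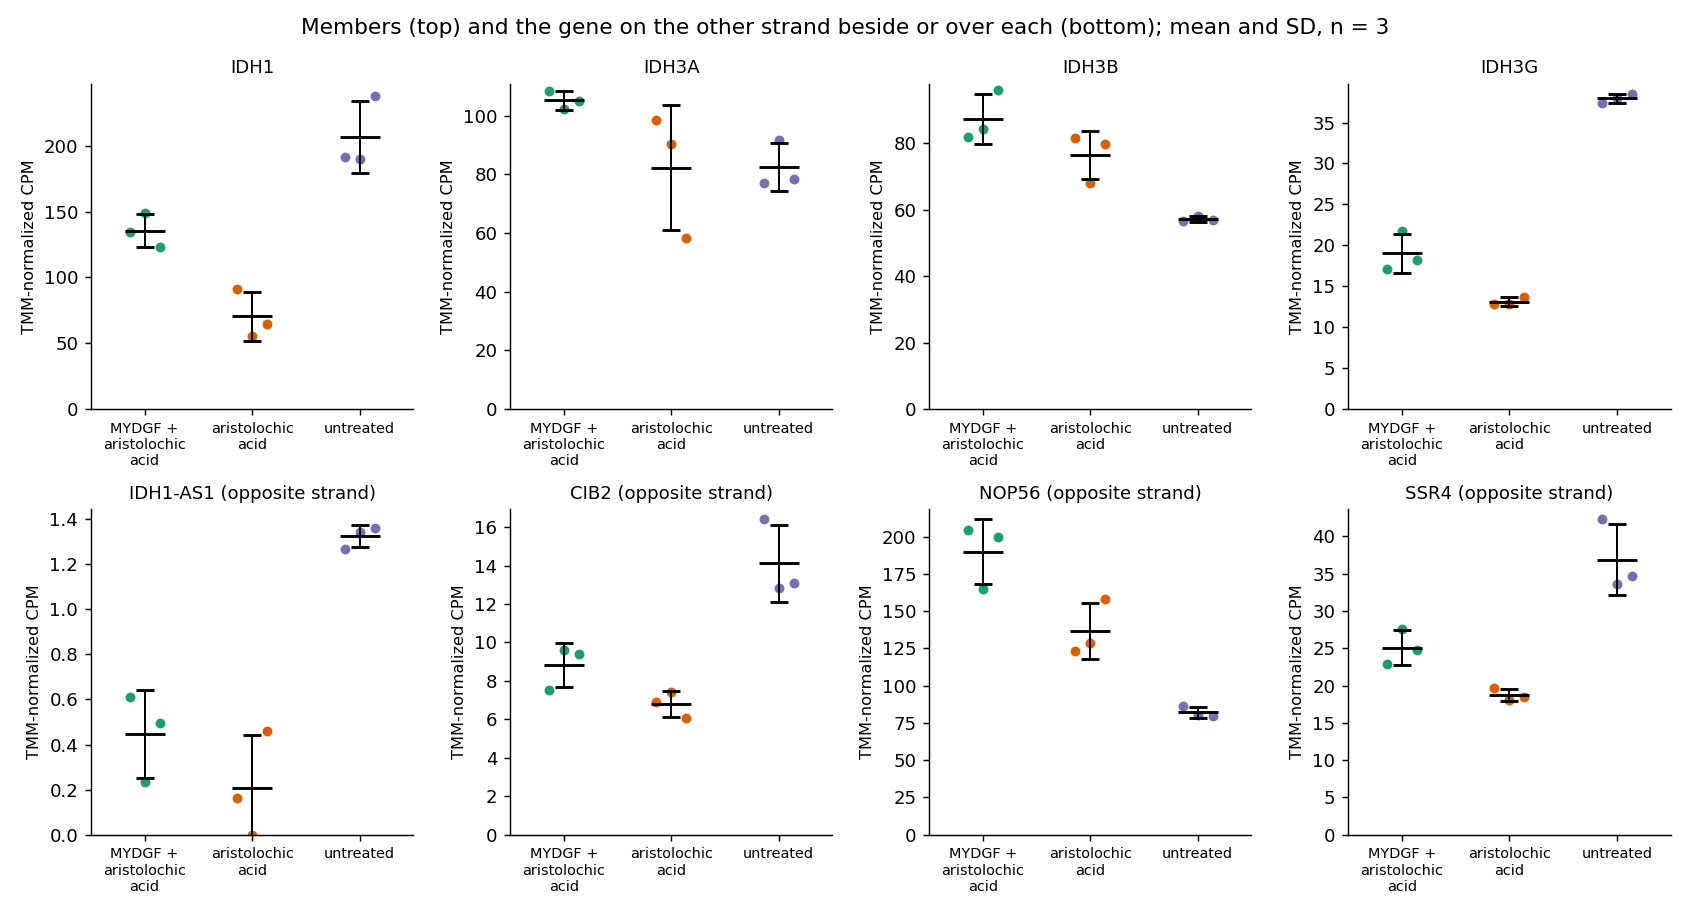
TMM-normalized CPM of IDH1, IDH3A, IDH3B and IDH3G (top row) and of a gene on the opposite strand at each locus (bottom row), by group; points are libraries, bars and whiskers the mean and SD (n = 3), with the vertical axis starting at 0. SSR4 (18.1 to 19.7 CPM in aristolochic acid and 33.6 to 42.4 CPM in untreated cells) has the order of IDH3G and NOP56 that of IDH3B, while CIB2 does not have the order of IDH3A. CIB2 shares 47 exonic bases with IDH3A. ACSBG1, which shares 2608 but had 1 to 12 reads per library, is not drawn.

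Around the family, other enzymes of the TCA cycle went both ways. Of 14 tested, 2 were higher and 4 lower in aristolochic acid than in untreated cells (of all genes 29.7% were higher and 29.3% lower). Between MYDGF plus aristolochic acid and aristolochic acid cells 2 were higher and 1 lower (14.7% of all genes each way), with medians of -0.01 and -0.00083 on the log2 scale in these comparisons. The largest change in aristolochic acid against untreated cells was in SUCLG1, a subunit of succinyl-CoA ligase, at 0.59 (SE 0.0631, adjusted p = 6.24e-05). SDHC (-0.45) and SDHA (-0.31), subunits of succinate dehydrogenase, and DLD (-0.33), the dihydrolipoyl dehydrogenase shared by the 2-oxoacid complexes, fell in that comparison. With MYDGF against the toxin alone, MDH2, the malate dehydrogenase of mitochondria, rose by 0.32 (SE 0.0637, adjusted p = 0.00648), SDHA rose by 0.31 and SDHD, a further succinate dehydrogenase subunit, fell by 0.36. Against untreated cells, MYDGF plus aristolochic acid cells had 4 of the 14 higher, among them SUCLG1 (0.59) and MDH2 (0.39), and 3 lower, among them SDHC (-0.53) and DLD (-0.48), where 26.8% of all genes were higher and 24.3% lower.

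Of 12 other genes linked to NADPH supply, not all of whose enzymes make NADPH, 5 fell and 3 rose in aristolochic acid against untreated cells. Their median was -0.10, where 29.3% of all genes fell and 29.7% rose. PGD, the phosphogluconate dehydrogenase of the pentose phosphate pathway, had 114 ± 6.06 CPM in aristolochic acid cells and 186 ± 8.62 CPM in untreated cells (log2 fold change -0.71, SE 0.0720, adjusted p = 4.46e-05). ALDH1L1, a cytosolic formyltetrahydrofolate dehydrogenase, had only 0.0270 ± 0.0467 CPM in aristolochic acid cells and 1.06 ± 0.184 CPM in untreated cells and was called lower (adjusted p = 0.00114). The mitochondrial folate enzymes MTHFD2 (0.82) and MTHFD1L (0.75) rose. With MYDGF against the toxin alone 3 of the 12 rose and 1 fell (median 0.12; 14.7% of all genes each way). Those that rose were ALDH1L2 (0.81), the mitochondrial counterpart of ALDH1L1, ME3, a mitochondrial malic enzyme (0.71, SE 0.115, adjusted p = 0.00306), and PGD (0.22, adjusted p = 0.0441); MTHFD2 fell (-0.26). Against untreated cells, MYDGF plus aristolochic acid cells had 4 higher, led by MTHFD1L (0.92) and ALDH1L2 (0.71), and 5 lower, led by ALDH1L1 (-2.99) and NNT (-0.74), the transhydrogenase of the inner mitochondrial membrane (of all genes 26.8% were higher and 24.3% lower).

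Of 15 genes that carry or convert citrate, isocitrate or 2-oxoglutarate, 7 fell and 5 rose in aristolochic acid against untreated cells (median -0.23; of all genes 29.3% fell and 29.7% rose). SLC25A11, the mitochondrial 2-oxoglutarate carrier, had 13.8 ± 0.996 CPM in aristolochic acid cells and 53.5 ± 1.18 CPM in untreated cells (log2 fold change -1.95, SE 0.122, adjusted p = 5.49e-06). SLC25A1, the mitochondrial citrate carrier, had 24.9 ± 2.17 CPM in aristolochic acid cells and 75.1 ± 13.2 CPM in untreated cells (-1.60, SE 0.160, adjusted p = 4.21e-05). PC, pyruvate carboxylase, fell as well (-1.34), and GPT, an alanine transaminase with 1.07 ± 0.281 CPM in aristolochic acid and 0.233 ± 0.147 CPM in untreated cells, rose (2.13). With MYDGF against the toxin alone 5 rose and 1 fell (median 0.13; 14.7% of all genes each way). Both carriers rose (0.95 for SLC25A1, adjusted p = 0.00336, and 0.77 for SLC25A11, adjusted p = 0.00274), as did GLUD2 (0.50), while GLUD1 fell (-0.42), both glutamate dehydrogenases with near-identical sequence whose reads may be split between them. Against untreated cells, MYDGF plus aristolochic acid cells had 3 higher, with PSAT1, which makes 2-oxoglutarate in serine synthesis, at 0.79, and 5 lower, with SLC25A11 (-1.18), OGDHL (-1.11), a relative of the 2-oxoglutarate dehydrogenase subunit OGDH, and PC (-1.03), where 26.8% of all genes were higher and 24.3% lower.

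Enzymes that act on D-2-hydroxyglutarate, a reduced form of the IDH product, went separate ways. D2HGDH, which oxidises it, had 13 ± 1.37 CPM in MYDGF plus aristolochic acid cells, 9.19 ± 2.08 CPM in aristolochic acid cells and 22.3 ± 1.06 CPM in untreated cells. It fell in aristolochic acid against untreated cells (log2 fold change -1.28, SE 0.159, adjusted p = 0.000136), rose with MYDGF against the toxin alone (0.50, SE 0.160, adjusted p = 0.0431) and stayed below untreated cells (-0.78). ADHFE1, a transhydrogenase that makes it, had 1.46 ± 0.243 CPM in MYDGF plus aristolochic acid cells, 2.5 ± 1.5 CPM in aristolochic acid cells and 0.397 ± 0.0712 CPM in untreated cells, and rose over untreated cells in both (1.85 and 2.63).

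Of 14 genes known to regulate IDH enzymes or their transcription, 13 were tested and PPARGC1A was too low. In aristolochic acid against untreated cells 4 rose and 4 fell (median 0.01; of all genes 29.7% rose and 29.3% fell). SIRT3, the mitochondrial deacetylase that acts on IDH2, had 9.15 ± 0.933 CPM in aristolochic acid cells and 17.6 ± 0.435 CPM in untreated cells (-0.94, SE 0.119, adjusted p = 0.000154). MYC (2.19), PPARGC1B (1.35) and FOXO3 (0.96) rose; MYC spread widely between libraries (32.5 ± 28.1 CPM in aristolochic acid and 7.07 ± 0.789 CPM in untreated cells). Between MYDGF plus aristolochic acid and aristolochic acid cells 0 of the 13 passed with edgeR and 0 with DESeq2, and 1 had an unadjusted p under 0.05 with edgeR, where 29.4% of all genes passed. SIRT3 was at 0.05 in that comparison (SE 0.121, adjusted p = 0.793). Against untreated cells, MYDGF plus aristolochic acid cells had 4 higher and 4 lower (26.8% and 24.3% of all genes), with MYC at 2.18, PPARGC1B at 1.19, SIRT3 at -0.89 and FOXO3 at 0.85.

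**Figure D5:**
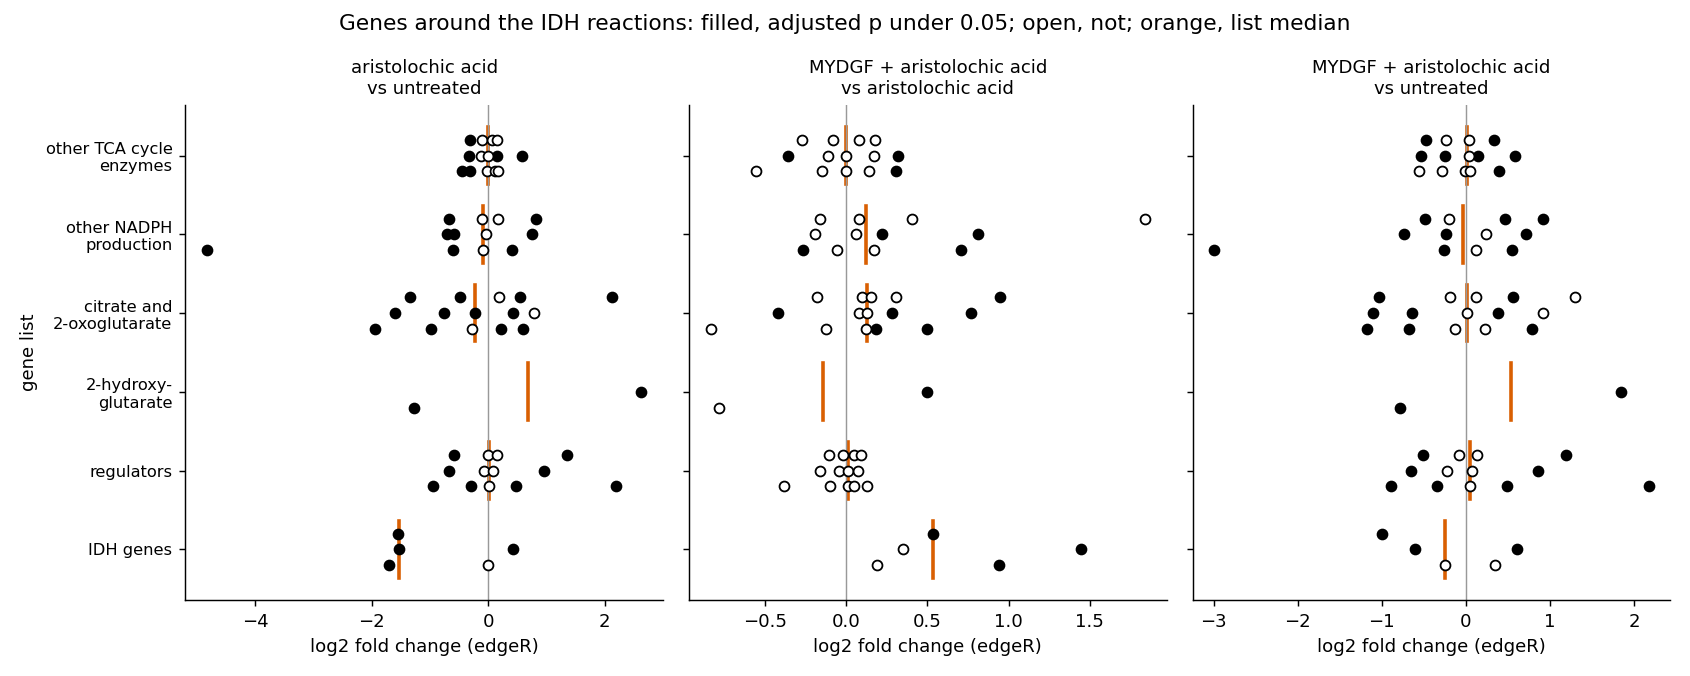
Log2 fold change of each gene tested (points) in 5 lists and of the 5 IDH genes, in the 3 comparisons; filled points have an adjusted p under 0.05 and the orange line is the median of each row. The IDH genes have a median of -1.53 in aristolochic acid against untreated cells, where the other TCA cycle enzymes have -0.01.

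The genes whose log2 CPM followed each member most closely over the 9 libraries were found among 9923 tested protein-coding genes with a mean of at least 10 CPM. For IDH2 they were LONP1, the mitochondrial matrix protease, with Pearson r = 0.998, BCL7C (0.998) and NBEAL2 (0.997). LONP1 had 195 CPM on average in MYDGF plus aristolochic acid cells, 107 CPM in aristolochic acid cells and 218 CPM in untreated cells. For IDH1 they were RAVER2 (0.996), LRFN1 (0.993) and RHOBTB2 (0.992), and for IDH3G they were GDF11, ORMDL2 and C19orf33 (0.996 each). IDH3B went with MTA2 (0.990), NHSL1 (0.990) and MAP7D1 (0.984). The closest to IDH3A was NUBP2 (0.970), a cytosolic iron-sulfur assembly factor, before ZNF324 (0.939) and the ribosomal protein gene RPL30 (0.937). No gene was among the closest 3 of more than 1 member. These values describe 9 libraries that share 3 groups, where a gene with similarly spaced group means can score highly.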

How the data were processed

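RNA of HK-2 cells, from 1.3 µg total RNA per library per the labels' protocols, was sequenced in 9 libraries of 3 groups. The authors deposited whole-number read counts per gene and FPKM values for 62703 genes. The deposited FPKM of a gene equals its count divided by 1 gene length and the library total (within 0.1% for all 37792 genes above 0). CASAVA 1.8, HISAT2, SAMtools 1.3.1, edgeR and the mouse build mm10 are named per the submitters' processing notes, whereas the deposited table holds human Ensembl genes whose IDH loci lie within 27 bases of GENCODE 29 on GRCh38; no source used here gives the counting tool, annotation or strand setting. Treatment entries of 4 libraries read HK-3 or HK-4, and the cell line entry of all reads HK-2.

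Counts were filtered with filterByExpr (at least 10 counts, total 15), scaled by TMM and tested with edgeR 4.0.16 (quasi-likelihood, 3 groups, 9 libraries, 6 residual degrees of freedom; R 4.3.3), leaving 18267 genes. The Benjamini-Hochberg threshold was 0.05 over all genes in each comparison. SE is the absolute log2 fold change over the square root of F. Replicates differed by more than counting noise (chi-square per gene 9.72 to 20.1), so all 9 libraries were kept. Alternatives were other scalings, DESeq2 1.42.0, no low-count filter, fits of the groups compared alone, the replicate number as a block, and leaving out each library.

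All 5 members are named; of each list, up to 4 called genes with the largest changes per comparison, and lists of 3 or fewer whole; antisense, divergent, pseudogene and overlapping genes; and the 3 genes closest to each member by Pearson r. Members and lists were chosen with earlier results of these data known. Some list genes are not reported here, and counts leave them out.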

Additional observations from a re-analysis of the deposited data

How the results depend on the processing

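For aristolochic acid against untreated cells, IDH1, IDH2 and IDH3G kept their direction and their call under all 16 alternatives, as did IDH3B and IDH3G for MYDGF plus aristolochic acid against untreated cells. The near-zero IDH3A value for aristolochic acid against untreated cells became positive, and was not called, with RLE factors (0.0382), upper-quartile factors (0.0381), no scaling factor (0.0229), DESeq2 (0.0255), the groups compared alone (0.0284) and the block below (0.29), and ran from -0.14 to 0.22 when each library was left out. With the groups compared alone, IDH2 (-0.24) and IDH3A (0.36) passed for MYDGF plus aristolochic acid against untreated cells. Leaving out each library gave 0.15 to 0.50 for IDH3A between MYDGF plus aristolochic acid and aristolochic acid cells, 0.29 to 0.42 for IDH3A and -0.68 to -0.48 for IDH1 against untreated cells, and 1678 to 3462 genes lower between MYDGF plus aristolochic acid and aristolochic acid cells, lowest without MYDGF plus aristolochic acid library 3. The log2 IDH3G to IDH3A ratio between those groups ran from -0.0231 (without aristolochic acid library 1) to 0.41, and the log2 IDH3B to IDH3A ratio from -0.36 to 0.0683 (without aristolochic acid library 6). Over the first GENCODE transcript, a length chosen after seeing the data, the IDH2 share differed by -8.95 points between aristolochic acid and untreated cells, against -15.1 with the deposited length.

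Libraries with the same number showed no common deviation (correlations of -0.174 to 0.0221 over 5 pairs). Pairs with different numbers gave -0.162 to 0.193, so this check cannot tell whether the numbers mark shared cultures or batches. The numbers are used here as names of libraries. With the replicate number as a block, which leaves 2 residual degrees of freedom, the calls were 2652 higher and 2410 lower for aristolochic acid against untreated cells, 8 and 6 for MYDGF plus aristolochic acid against aristolochic acid cells, and 2909 and 2537 for MYDGF plus aristolochic acid against untreated cells, where the unblocked fit gave 5418 and 5361, 2688 and 2691, and 4889 and 4440. Under the block IDH3B (0.38) was not called for aristolochic acid against untreated cells, IDH1 (0.81), IDH2 (1.42) and IDH3G (0.50) were not called for MYDGF plus aristolochic acid against aristolochic acid cells, and for MYDGF plus aristolochic acid against untreated cells IDH1 (-0.51) was not called and IDH3A (0.45) was. The cause of these differences was not tested. The block leaves fewer degrees of freedom. Number 2 occurs only among untreated libraries and number 6 only among aristolochic acid libraries, so under the block those libraries add nothing to the contrasts. IDH3G rests on the fewest reads of the 5, 149 to 508 per library.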
